A study of Homo sapiens with 12 samples.

Results

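The 10 genes described here encode the kinases of the DNA damage and replication checkpoints, ATM, ATR, CHEK1 and CHEK2, the ATR activator TOPBP1, the phosphatases CDC25A, CDC25B and CDC25C, and the kinases WEE1 and PKMYT1. They were taken by gene name, and all 10 were found among the 25914 genes that each deposited table lists. The series holds 12 RNA-seq libraries in 4 groups of 3. RPE-1 hTERT is an epithelial line from the retina, immortalized by telomerase, and HCT116 is an epithelial colon cancer line, both labelled wild-type. Each line received Nutlin-3a at 10 µM or the DMSO control for 24 h. Nutlin-3a blocks the binding of MDM2 to p53, so that p53 accumulates.

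The effect of Nutlin-3a on these genes was not analysed here. The measurement used is the base mean, a mean normalised read count per gene that the authors averaged over libraries. It was identical in the tables of RPE-1 and HCT116 for every listed gene, and the tables do not name the libraries behind it, which may include some from outside these 12. It therefore gives neither a level in either line nor one in treated or control cells, and has no replicate spread, so no difference between genes was tested. The reads per library are unknown.

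ATM and ATR are large kinases that respond to double-strand breaks and to stalled replication forks, and they activate CHEK2 and CHEK1. Both effector kinases phosphorylate CDC25 phosphatases and thereby restrain them. CDC25 phosphatases remove the inhibitory phosphates from cyclin-dependent kinases that WEE1 and PKMYT1 add, so that entry into S phase and mitosis depends on the balance between them. p53 is a target of ATM and CHEK2.

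The short sequences below show letters of motifs in the promoters of 3 members, since cell cycle genes are often controlled through such elements. The windows are RefSeq promoters of GRCh38.p14, from 250 bases before to 50 bases after a gene's start, and 8 of the 10 members matched. WEE1 and PKMYT1 did not. Where a gene had several windows, that nearest to the start of the canonical GENCODE 44 transcript was used, and at CHEK1 this lay 1061 bp from that start. Motifs were searched on both strands, as TTTGAA for the cell cycle genes homology region (CHR), CCAAT for the CCAAT box and TTTNNCGC for an E2F site, and no match of one motif overlapped another. Each line holds 30 bases on the strand of the gene, with the matched letters in capitals:
CDC25C, CHR: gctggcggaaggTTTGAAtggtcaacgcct
ATM, CHR: agtcacgcagggTTTGAAccggaagcggga
CDC25A, E2F: ggtggattccgTTTGGCGCcaactaggaaa

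The CDC25C stretch lies at chr5:138331817-138331846 on the minus strand, and its CHR letters begin 30 bases before the canonical start. The ATM stretch lies at chr11:108223035-108223064 on the plus strand, with the CHR letters 20 bases before the canonical start. The CDC25A stretch lies at chr3:48188443-48188472 on the minus strand, with the E2F letters 44 bases before the canonical start. In GENCODE 44, the annotated spans of CDC25C and ATM begin upstream of their CHR letters. CHR letters were found in these 2 of the 8 windows, against 15.2% of all 35116 windows of that length. E2F letters were found in 3 of 8 (CDC25A, CHEK2 and TOPBP1), against 6.89% of all windows. CCAAT letters were found in 6 of 8 and were missing at ATR and TOPBP1, against 34.6% of all windows. The shares of all windows count every window of a gene, whereas only the nearest window of each member was used. These matches describe letters only, and binding was not measured.

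Among the sensor kinases, ATM (ENSG00000149311, chromosome 11 from 108223044 to 108369102, 63 exons in its canonical transcript) had a base mean of 1764 normalised counts. ATR (ENSG00000175054, chromosome 3 from 142449007 to 142578733, 47 exons) had 1221. Levels of different genes can be compared only per length, and here the length decided the picture. The annotated exons of ATM cover 39.2 kb and those of ATR 27.2 kb, which gave 45.0 and 44.8 normalised counts per kb. With the exons of the longest transcript alone, the values were 134 and 150, and per kb of coding sequence 192 and 154, so that no order of the sensor kinases was fixed.

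TOPBP1 (ENSG00000163781, chromosome 3 from 133598175 to 133662380), which activates ATR at stalled forks, had a base mean of 1713 and 234 normalised counts per kb of all its exons. By this length it ranked 2 among the members, at percentile 75.7 of the listed genes found in GENCODE 44. It ranked 4 with the longest transcript and 5 per kb of coding sequence, where its percentile was 46.8 among genes with a coding sequence. By all exons, its percentile among protein-coding genes was 66.7, so the set of ranked genes also moved it.

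CHEK1 (ENSG00000149554, chromosome 11 from 125625163 to 125676255), the main effector of ATR, had a base mean of 745 and 133 normalised counts per kb. CHEK2 (ENSG00000183765, chromosome 22 from 28687743 to 28742422), the main effector of ATM, had 492 and 110 per kb. The ratio of CHEK1 to CHEK2 was 1.22 per kb of all exons, 0.94 with the longest transcript and 1.80 per kb of coding sequence, so that no order was fixed. Exons of STT3A, a listed gene on the same strand with a base mean of 3972, overlap those of CHEK1. GENCODE 44 names 8 pseudogenes after CHEK2, and 0 of them are listed. According to the paper, only unique mappings were kept. Whether reads shared with a pseudogene were lost from CHEK2 was not tested, nor whether reads of STT3A bear on the value of CHEK1.

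The CDC25 phosphatases covered the widest range. CDC25B (ENSG00000101224, chromosome 20 from 3786772 to 3806121), which acts at the start of mitosis, had a base mean of 5662 and 1451 normalised counts per kb of all exons. CDC25A (ENSG00000164045, chromosome 3 from 48157146 to 48188417), which also acts at entry into S phase, had 572 and 138 per kb. CDC25C (ENSG00000158402, chromosome 5 from 138285269 to 138338355), a mitotic activator of CDK1, had 230 and 69.0 per kb. CDC25B stood above CDC25C by a ratio of 21.0 per kb of all exons, 16.9 with the longest transcript and 20.1 per kb of coding sequence. Its ratio to CDC25A was between 8.94 and 12.2 over the same lengths. The order CDC25B, CDC25A, CDC25C was the same under the 3 lengths, although a pooled mean cannot tell whether it holds in either line.

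Of the kinases that oppose them, WEE1 (ENSG00000166483, chromosome 11 from 9573670 to 9593457) phosphorylates CDK1 in the nucleus and had a base mean of 1506 and 163 normalised counts per kb of all exons. PKMYT1 (ENSG00000127564, chromosome 16 from 2968024 to 2980479), bound to membranes of the cytoplasm, had 1048 and 211 per kb. The ratio of PKMYT1 to WEE1 was 1.29 per kb of all exons and 1.56 with the longest transcript. It was 0.79 per kb of coding sequence, which turned the order. A WEE1 pseudogene is listed with a base mean of 6.26.

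**Figure D1:**
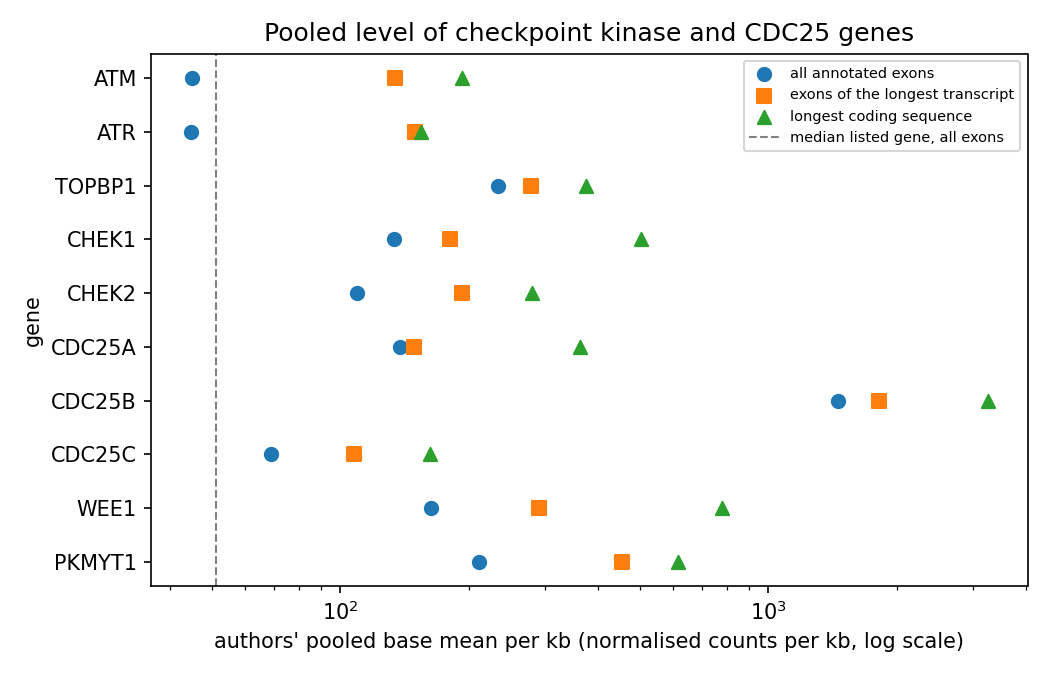
Authors' pooled base mean per kb (horizontal, log scale) of the 10 member genes (vertical), with 1 marker for each definition of gene length and a dashed line at the median listed gene, 51.3 normalised counts per kb of all exons. There are no error bars because the pooled mean has no replicate spread. CDC25B lies above the other 9 genes under each length, and ATM and ATR shift most between all exons and the exons of the longest transcript.

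Per kb of all exons, the members ranked CDC25B, TOPBP1, PKMYT1, WEE1, CDC25A, CHEK1, CHEK2, CDC25C, ATM and ATR. They lay between percentiles 48.1 and 96.2 of the listed genes, with a median of 65.7. Above the middle of the list were 8 of the 10 by all exons and 10 with the longest transcript. Per kb of coding sequence, 4 were above the middle of the genes that have a coding sequence. By all exons, 6 were above the middle of the protein-coding genes. With the longest transcript, the lowest member was CDC25C at 108 normalised counts per kb in place of ATR. Per kb of coding sequence it was again ATR, at 154. CDC25B was the highest member under each length.

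The other genes of the pathway were described by 2 lists. The clamp, adaptor and mediator genes, which load and signal at damaged DNA, ranged from 28.1 normalised counts per kb of all exons at RAD50 to 432 at TIMELESS, with a median of 118 over 14 genes. The substrates, cyclins and regulators of the members ranged from 199 at BTRC, part of the ubiquitin ligase that marks CDC25A for degradation, to 966 at CCNB1, the mitotic cyclin that activates CDK1, with a median of 437 over 7 genes. Per kb of coding sequence, the first list ranged from 75.5 at RAD50 to 803 at NBN. The second ranged from 482 at CCNE1 to 1880 at CDK2 by this length. Per kb of all exons, the members had a median of 136. CDK1, the kinase that CDC25 activates and WEE1 inhibits, had 217 per kb, and CDK2 had 502.

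**Figure D2:**
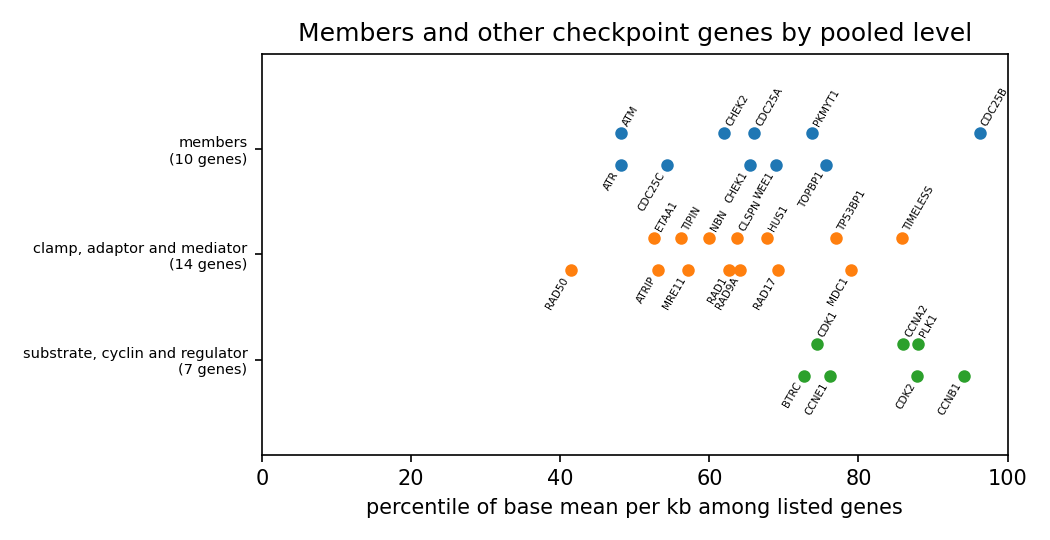
Percentile of the base mean per kb of all exons among the listed genes (horizontal, 0 to 100) for the 10 members and for the 14 and 7 genes of the other checkpoint lists (rows). Each point is 1 gene, offset vertically only for legibility. All 7 substrates, cyclins and regulators lie at percentile 72.7 or above, whereas the members and the mediators spread down to 48.1 and 41.4.

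Since the study concerned promoters that face each other, starts of opposite-strand genes within 2.5 kb of each member's canonical start were listed from GENCODE 44. ATM starts 429 bp from NPAT, a histone gene regulator that is transcribed away from it and had a base mean of 441. CHEK2 starts 219 bp from HSCB, with a base mean of 237, and TOPBP1 57 bp from a long noncoding RNA that is not listed. By canonical transcripts both of these pairs are divergent. By the outermost 5′ ends of the genes, a definition chosen after these values were seen, they overlap and face each other over 383 and 454 bp. ATR starts 2177 bp from a divergent ribosomal protein pseudogene, which is not listed. At CHEK1, the start of an opposite-strand long noncoding RNA lies 750 bp downstream of the canonical start, so that by this start both face each other. The start of the CHEK1 promoter window used above lies further downstream, 1061 bp from the canonical start. By that start the pair is divergent. This RNA is not listed either. No canonical start was annotated on the opposite strand within 2.5 kb of the other 5 members. By outermost ends, however, CDC25B starts 32 bp from the divergent gene CENPB. Opposite-strand exons of listed genes overlap those of ATM, ATR, CHEK2, CDC25C and PKMYT1. The largest base mean among these partners was 3200, at FAM53C, which overlaps CDC25C. According to the paper's methods, which do not name HCT116, reads were counted by strand.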

How the data were processed

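RNA was sequenced from 12 libraries, 3 for each cell line and treatment as given by the labels. The labels describe ribosomal RNA depletion and the paper's methods poly(A) selection. As the paper describes it, the authors quality-trimmed and error-corrected the reads and removed ribosomal reads. They mapped the rest with segemehl to hg38 with an Ensembl annotation, kept unique mappings, counted them on exons by strand and compared treatments. The paper's methods name RPE-1 and do not name HCT116. The submitters' processing notes name Trimmomatic 0.39, cutadapt 3.3, SAMtools 1.12, featureCounts 2.0.1 and, for the comparison by the authors, DESeq2 1.32.0, partly other versions than the paper. The deposited signal used here is the base mean, the mean of the authors' size-factor-normalized counts over libraries. The other 5 numeric columns of each table hold the authors' log2 fold changes, standard errors, test statistics and p-values, which were not used, and 0 columns are named for a library. The tests between treatments that had been planned for values per library were therefore not run.

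Base means were divided by the exon length of GENCODE 44 on the same build, a later release than the annotation that the paper names. Exons added since then would add length without counted reads. By identifier, 25836 listed genes were found in GENCODE 44. A percentile is the share of these genes with a lower value, unless another set is named. Per kb of coding sequence, only genes with a coding sequence were ranked. Alternatives were the exons of the longest transcript, the longest coding sequence, the 15740 protein-coding genes, and genes with base means of at least 10. All 10 members are named, and of the other lists the highest and the lowest gene per kb of all exons. CDK1, CDK2 and the highest and lowest genes per kb of coding sequence were added after their values were seen. Members, lists and motifs were chosen with earlier results of these data known. The functions for exon length, percentile and motif search were tested on simulated data, the last with the CHR letters only. Python 3.11.15 with numpy 2.4.6, pandas 2.3.3 and matplotlib 3.10.9 was used.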

Additional observations from a re-analysis of the deposited data

How the results depend on the processing

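The median percentile of the 10 members, 65.7 with all exons, was 66.1 with the exons of the longest transcript, 46.5 per kb of coding sequence, 53.1 among protein-coding genes and 57.3 among genes whose base mean reached 10. The last 3 alternatives lowered the percentile of each of the 10 members, and the first raised 7 and lowered 3. The largest single move was 28.8 percentile points, at TOPBP1 per kb of coding sequence. The coding length leaves noncoding genes out of the ranking by its construction, as does the ranking among protein-coding genes, and the minimum removes genes with low values. CDC25B stayed at or above percentile 90.7. No alternative was run for the treatment, since the pooled mean does not separate Nutlin-3a from DMSO. By outermost gene ends in place of canonical starts, 3 members in place of 1 faced an opposite-strand start. The 1 by canonical starts was CHEK1, where the pair was divergent by the start of its promoter window. No paired analysis was possible because the pooled mean holds no values per library, and no replicate was left out for the same reason. Depth limits every value to an unknown extent.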
